A study of Mus musculus with 12 samples.

Results

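Genes of the extracellular matrix, of its integrin receptors and of the proteases that cut it were followed in RNA-Seq of AtT-20 cells, which derive from a mouse pituitary tumor and serve as a corticotrope model. Members were taken by gene symbol: collagen alpha chains (Col), laminin alpha, beta and gamma chains (Lam), integrin alpha and beta subunits (Itga, Itgb), ADAMTS proteases and matrix metalloproteinases (Mmp). Only symbols with a number count, so the integrin alpha subunits Itgav, Itgal and Itgae are not members and are listed with other genes further below. In all, 59 of the 16385 genes in the deposited table have such a symbol, and 28 of the 59 reached at least 1 FPKM in at least 2 libraries and were tested. The members are 17 collagens (7 tested), 7 laminin chains (5 tested), 7 integrin alpha subunits (4 tested), 7 integrin beta subunits (3 tested), 11 ADAMTS proteases (4 tested) and 10 matrix metalloproteinases (5 tested). The GENCODE M21 gene annotation holds 116 symbols of this form, so many genes of these families have no row. Levels and counts below are those of the genes with a row, not of whole families. The table names no unit. Its values were taken as FPKM, fragments scaled to transcript length and to library size, from the authors' use of HOMER and from the values themselves, and the comparisons of level between genes rest on this reading.

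The cells expressed Pax7, a pioneer transcription factor of pituitary melanotropes, or its relative Pax3, and each of 6 groups had 2 libraries. Of these groups, 3 are Pax7 isoforms that differ in the DNA-binding paired domain by a glutamine (Q) and a glycine-leucine pair (GL): Pax7 Q-GL- has neither, Pax7 Q-GL+ has the pair, and Pax7 Q+GL+ has both. The other groups are Pax3, Pax7-465, which stops at residue 465 and so lacks the C-terminal end, and NoTag, labelled as Pax7 with no isoform named. The label of Pax7-465 names no isoform either, but the study presents its deletion mutants as Q+GL- and describes Pax3 as Q+GL- too. On that reading Pax7-465 differs from Q+GL+ cells in the pair as well as in the C-terminal end. It differs from Q-GL- cells in the glutamine as well, so neither comparison isolates the deletion. The methods describe retroviral vectors with a CMV promoter and Flag tags at both ends of the protein. The label NoTag reads as Pax7 without a tag, so a tag may be a further difference in the NoTag comparisons. It cannot be told apart from the other differences of that group. The methods also describe selection with Geneticin and pooling of many resistant colonies, so that each group is a pool of infected cells rather than 1 clone. They speak of biological replicates without saying that the cultures or infections were separate, and p-values then measure only the spread between these libraries. Cells without an introduced factor were not analysed here, so every difference below is between cells expressing different Pax proteins.

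Collagens and laminins are secreted chains that assemble into fibrils, networks and basement membranes, and each laminin is a trimer of an alpha, a beta and a gamma chain. Integrins are alpha-beta heterodimers in the cell membrane that bind these proteins, with Itgb1 shared by most laminin and collagen receptors. Matrix metalloproteinases and ADAMTS proteases cleave matrix and cell surface proteins and are held in check by tissue inhibitors such as Timp2. In the pituitary, hormone cells lie in lobules bounded by basement membrane and contact laminin through integrins.

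Summed FPKM was 413794 to 483161 in the 10 libraries other than NoTag and 627305 to 666609 in the NoTag libraries. The read depth is unknown, since the table holds no counts. The NoTag libraries differ from the rest: 733 genes were listed at 0 in the 10 others but not in NoTag, including the widely used genes Rbm42, Rnasek and Junb, so that a value of 0 can be a failed estimate. For this reason levels are summarised over the 10 other libraries, and the NoTag comparisons are given on their own. Pax7 was at 93.9 to 113 FPKM in the Pax7 groups other than NoTag, at 157 and 159 FPKM in the NoTag libraries and at 0.159 and 0.161 FPKM in the Pax3 libraries. Tbx19, the gene of Tpit and shared by corticotropes and melanotropes, was at 116 to 134 FPKM outside NoTag and at 139.5 and 143 FPKM in NoTag, and 5 of the 6 corticotrope markers with a row reached 1 FPKM outside NoTag. Of 8 fibroblast markers, the 3 among the genes analysed here summed to 0.0258 to 0.687 FPKM outside NoTag and to 1.35 to 1.69 FPKM in NoTag. The 1 endothelial marker of 6 with a row summed to 0.0175 to 0.15 FPKM outside NoTag, and none of these fibroblast or endothelial markers reached 1 FPKM there. The 2 macrophage and leukocyte markers with a row summed to 0.185 to 0.658 FPKM and the 3 folliculostellate and glial markers to 4.30 to 5.18 FPKM outside NoTag. The 4 melanotrope markers with a row, Pax7, Pcsk2, Oacyl and Megf11, summed to 90.5 to 253 FPKM outside NoTag and to 354 to 362 FPKM in NoTag. Pax7 was itself introduced in every group but Pax3, so this sum is not a measure of melanotrope identity alone. The part of these markers in the results was not tested.

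The matrix genes were expressed at low levels in these cells, with a few exceptions. Over the 10 libraries other than NoTag, the median member had a mean of 0.590 FPKM, compared with 6.61 FPKM for all genes in the table, and 36 of the 59 members had a mean under 1 FPKM. Only 5 had a mean of at least 10 FPKM, namely Itgb1, Itga6, Col22a1, Mmp24 and Itga3. Itgb1, the beta1 integrin subunit, was the highest, at 119 to 146 FPKM outside NoTag. Itga6, which pairs with beta1 or beta4 in laminin receptors, followed at 26.1 to 35.9 FPKM, and Itga3, another laminin-binding alpha subunit, was at 8.61 to 12.1 FPKM. Itgb4, the other partner of Itga6 and part of hemidesmosomes, did not exceed 0.333 FPKM in any library, and it is named here after its values were seen.

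Among collagens, Col22a1, a collagen of tissue junctions with interrupted triple helices, was at 14.1 to 28.3 FPKM outside NoTag. Col18a1, the basement membrane collagen whose C-terminal fragment is endostatin, was at 5.97 to 10.6 FPKM. The highest laminin chains were Lamc1, the common gamma1 chain, at a mean of 4.56 FPKM, and Lamb3, the beta3 chain, at 3.93 FPKM. Integrin beta5 (Itgb5), a vitronectin receptor subunit, had a mean of 7.73 FPKM. Proteases were led by Mmp24, a membrane-type metalloproteinase also called MT5-MMP, at 9.92 to 12.7 FPKM, and by Mmp28, known as epilysin, at 3.45 to 4.67 FPKM. Among ADAMTS genes, Adamts4, an aggrecanase, had a mean of 2.62 FPKM and Adamts17 one of 1.62 FPKM. Adamts17 differed between libraries of 1 group by more than most members, for example 0.645 and 2.60 FPKM in the Pax3 libraries. The plot of the level of each tested member in each library shows how far Itgb1 lies above the rest.

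**Figure D1:**
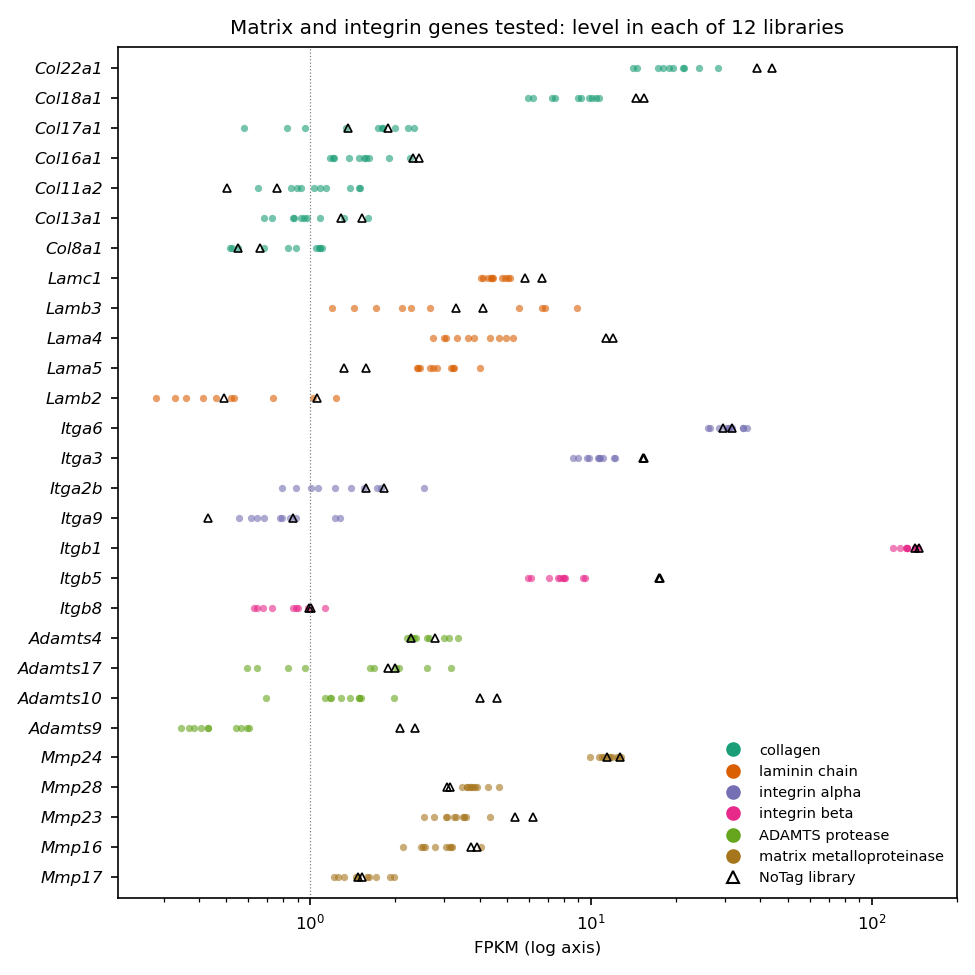
FPKM on a log axis for each of the 28 tested members, grouped by kind. Filled points are the 10 libraries other than NoTag, open triangles the 2 NoTag libraries, and the dotted line marks 1 FPKM. Itgb1 lies above 100 FPKM in every library, while Adamts9 is above 1 FPKM only in the NoTag libraries.

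The 31 members not tested did not exceed 1.37 FPKM in any library. They include 10 collagens, and 6 of the 31 were listed at 0 in all 10 libraries other than NoTag: Col4a3, Itga4, Adamts14, Adamts3, Mmp11 and Mmp19. Just inside the limit of 1 FPKM in 2 libraries were Itgb8, Adamts9, Lamb2 and Itga9, with highest values of 1.13, 2.36, 1.24 and 1.27 FPKM. Just outside it, with 1 library each above 1 FPKM, were Col1a1, Lamb1, Col9a3 and Col28a1, with highest values of 1.07, 1.17, 1.37 and 1.35 FPKM. Adamts9 passed the limit through NoTag alone and so had to differ there.

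Groups were compared by limma-trend on log2(FPKM + 1), a scale that understates the change of low genes, and p-values were adjusted by Benjamini-Hochberg over the 12578 genes tested in each comparison. Differences are given on this log2 scale as the first group minus the second, ± the standard error. Outside NoTag, 6 of the 28 tested members passed an adjusted p of 0.05 in some planned comparison: Lamb3, Lama4, Col22a1, Col18a1, Col17a1 and Itga6. Most of these calls set Q-GL- cells above another group, and no matrix metalloproteinase, ADAMTS protease or beta integrin passed with the values as deposited. The share of all genes that passed in any of these planned comparisons was not computed, so shares are given for each comparison. How often groups fail to overlap over all genes was not computed either, so a lack of overlap named below describes single genes. In bulk RNA a lower level cannot be told apart from fewer cells of a kind, so each value is that of the whole pool.

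The Q-GL- and Q-GL+ constructs differ in the glycine-leucine pair alone, though each group is a pool of infected cells. In this and the other comparisons, the construct cannot be told apart from the pool. The Q-GL- and Q-GL+ cells differed in 4 of 28 members, a share of 14.3%. Of all genes tested 4.17% did so, 3.06% as higher and 1.11% as lower in Q-GL- cells. Lamb3, Lama4 and Col22a1 were higher and Itga6 was lower in Q-GL- cells. The median log2 fold change of the members was 0.14, compared with 0.04 over all genes. Between Q-GL- and Q+GL+ cells, which differ in both insertions, 3 members stood higher and 0 lower in the former (10.7%, compared with 2.15% of all genes, 1.8% higher and 0.358% lower), namely Lamb3, Lama4 and Col18a1. Between Q-GL- and Pax3 cells, 4 members stood higher and 0 lower in the former (14.3%, compared with 4.33% of all genes, 3.62% higher and 0.716% lower), namely Lamb3, Col18a1, Col22a1 and Col17a1. These 3 comparisons share the Q-GL- libraries, so their calls are not independent of each other.

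The GL+ isoforms and Pax3 gave few or no calls among themselves. Q+GL+ cells differed from Q-GL+ cells in no member (0.962% of all genes passed, 0.453% higher and 0.509% lower), where limma gave 3 members higher and 2 lower in Q+GL+ cells at an unadjusted p under 0.05. Here 2 members passed after median centring and after quantile normalization, Col18a1 at -0.38 and -0.40 and Itgb5 at 0.47 and 0.46. None passed between Pax3 and Q+GL+ cells (0.262% of all genes, 0.0875% higher and 0.175% lower), nor under any alternative run. Before adjustment limma put 4 members higher and 5 lower in Pax3 cells at p under 0.05. The deletion Pax7-465 exceeded Q-GL- cells in 1 member, Itga6 (3.57% of members, compared with 0.445% of all genes, 0.0954% higher and 0.35% lower), and Q+GL+ cells in 1 member, Lamb3 (3.57%, compared with 1.33%, 0.867% higher and 0.461% lower). The plot of differences shows that Lamb3 stands farthest from 0 in each of the 4 comparisons drawn.

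**Figure D2:**
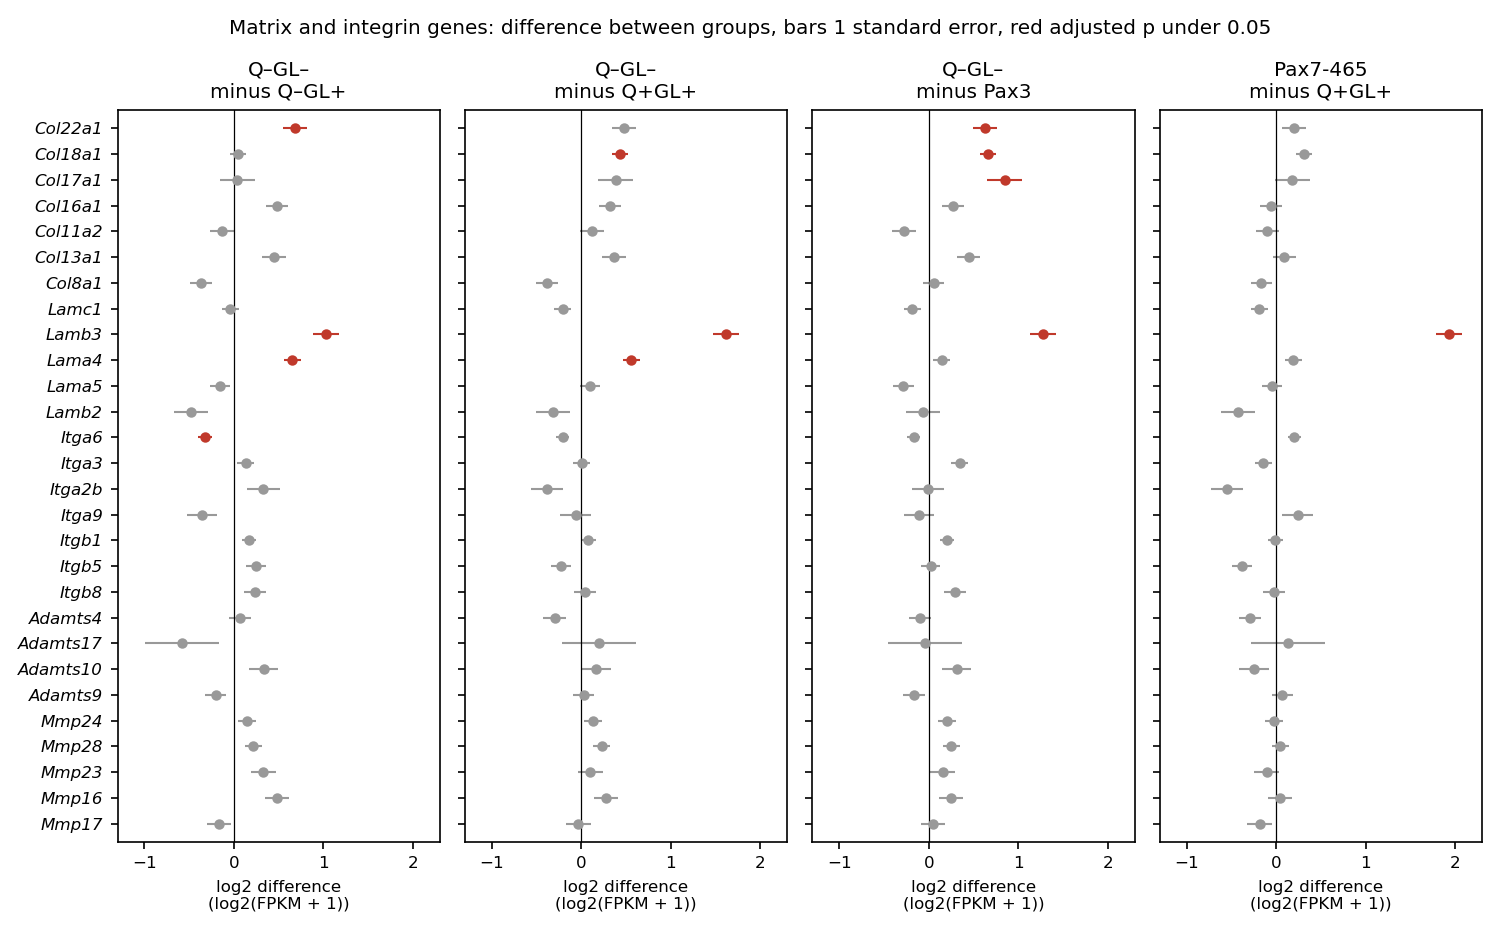
Difference on the log2(FPKM + 1) scale for each of the 28 tested members in 4 comparisons, with bars of 1 standard error from limma. Red points passed an adjusted p of 0.05 and grey points did not. Lamb3 lies at 1.03, 1.62, 1.28 and 1.93 from left to right.

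Lamb3 encodes the beta3 chain of laminin-332, the laminin that anchors epithelial cells to basement membrane through hemidesmosomes. The table places the gene (ENSMUSG00000026639) on chromosome 1 of GRCm38, plus strand, from 193207699 to 193343878. A RefSeq promoter window of Lamb3 is shown because it has the widest range of the members, and windows of Col17a1 and Col18a1 because both passed, with Lamb3, between Q-GL- and Pax3 cells. Each line holds the 250 bases before a RefSeq transcription start on GRCm38.p6, on the strand of the gene. Capitals mark matches on either strand to TAAT, the core of a homeodomain site. They also mark the E-box CAGCTG and the TATA box, spelled TATAAA.
Lamb3, chr1:193301744-193301993, plus strand: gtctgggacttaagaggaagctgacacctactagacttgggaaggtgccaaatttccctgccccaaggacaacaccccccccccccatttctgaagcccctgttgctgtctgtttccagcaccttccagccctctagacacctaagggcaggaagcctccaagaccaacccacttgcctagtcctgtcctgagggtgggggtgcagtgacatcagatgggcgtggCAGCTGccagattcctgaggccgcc
Col17a1, chr19:47692043-47692292, minus strand: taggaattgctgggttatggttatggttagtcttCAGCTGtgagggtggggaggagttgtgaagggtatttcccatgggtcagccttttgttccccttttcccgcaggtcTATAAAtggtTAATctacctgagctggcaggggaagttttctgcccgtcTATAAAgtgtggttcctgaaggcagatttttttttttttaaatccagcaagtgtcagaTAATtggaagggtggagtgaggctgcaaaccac
Col18a1, chr10:77166531-77166780, minus strand: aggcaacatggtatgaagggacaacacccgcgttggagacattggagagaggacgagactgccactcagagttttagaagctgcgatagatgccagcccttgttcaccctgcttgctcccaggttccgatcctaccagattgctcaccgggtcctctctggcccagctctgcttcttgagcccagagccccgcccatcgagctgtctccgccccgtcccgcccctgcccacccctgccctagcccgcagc

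The Lamb3 window shown holds 1 E-box, the Col17a1 window holds 1 E-box, 2 TAAT cores and 2 TATA boxes, and the Col18a1 window shown holds none of these letters. Lamb3 and Col18a1 each have a second RefSeq window, at chr1:193301993-193302242 and chr10:77113706-77113955, and neither holds any of these motifs. Windows were found for 39 of the 59 members, 43 windows in all. TAAT occurred in 15 of the 43 windows (34.9%), compared with 54.9% of the 32851 mouse windows searched. CAGCTG occurred in 11 of 43 (25.6%), compared with 13% of all windows, and TATAAA in 4 (9.3%), compared with 12.4%. Homeodomain dimer sites, with TAAT and its reverse complement 2 or 3 bases apart, were in 0 of the 43 windows and in 0.384% and 0.463% of all windows. GTCACG, a core of paired-domain sites, and GGTGTGA, a T-box half-site, were in 1 window each, compared with 6.93% and 3.33% of all windows. TAAT and the dimer sites overlap by construction, and a match of letters is not a binding site. The 14 windows of members past the test held 46% to 75.6% G and C, compared with a mean of 53.2% over all windows. Only the Col17a1 window and an Itga3 window lay below 53.2%. The part of base composition in the motif shares was not tested. The Lamb3 start of the window shown lies 94295 bases inside the gene as the table bounds it, so other Lamb3 transcripts begin upstream of this window.

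Lamb3 was at 6.83 and 8.92 FPKM in the Pax7-465 libraries and at 5.51 and 6.67 FPKM in the Q-GL- libraries. It was at 2.27 and 2.66 FPKM in Q-GL+, 2.12 and 1.72 FPKM in Pax3 and 1.19 and 1.43 FPKM in Q+GL+ libraries. The Pax7-465 and Q-GL- libraries were thus all above 5 FPKM and the 6 others all below 3 FPKM, with no overlap. Q-GL- minus Q-GL+ cells gave a log2 fold change of 1.03 ± 0.15 (adjusted p = 0.0019) from limma. The difference was 1.62 ± 0.15 (adjusted p = 9.1e-05) from Q+GL+ and 1.28 ± 0.15 (adjusted p = 4.5e-04) from Pax3 cells. In Pax7-465 cells Lamb3 exceeded Q+GL+ cells by 1.93 ± 0.15 (adjusted p = 3.7e-05), the widest difference of any member outside NoTag.

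In the order of Lamb3 levels, the neighbours at the top and at the bottom did not differ past the test. Pax7-465 lay above Q-GL- cells by 0.32, with a 95% interval of 0.00 to 0.64 and an adjusted p = 0.47. Q-GL+ lay above Pax3 cells by 0.25 (interval -0.07 to 0.57), and Pax3 above Q+GL+ cells by 0.34 (interval 0.02 to 0.66, adjusted p = 0.47). Between the ends of the low groups, Q+GL+ minus Q-GL+ cells gave -0.59 from limma (interval -0.91 to -0.27, adjusted p = 0.093). This difference did not pass, but the low groups need not share 1 level. Across the middle of the order the difference was larger: Pax7-465 exceeded Q-GL+ cells by 1.35 ± 0.15 (adjusted p = 0.0014) and Pax3 cells by 1.60 ± 0.15 (adjusted p = 1.8e-04). These comparisons of Pax7-465 with Q-GL+ and Pax3, and that of Q-GL+ with Pax3, were not planned but chosen once the data had been seen. Between Pax7-465 and Q-GL+ cells, 0.795% of all genes passed, 0.501% higher and 0.294% lower. In NoTag, Lamb3 was at 4.11 and 3.29 FPKM, between the high and the low groups. Each planned Lamb3 call, those with NoTag included, was kept under every alternative run.

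**Figure D3:**
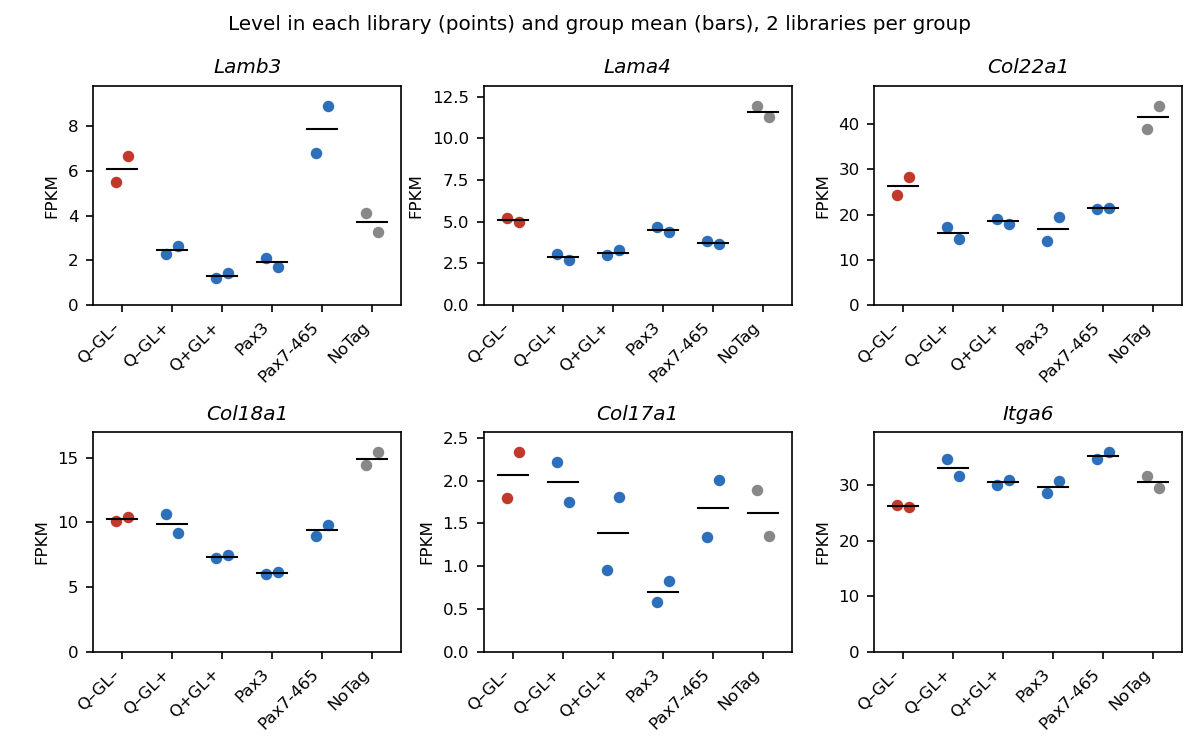
FPKM of the 6 members that passed the test in a planned comparison without NoTag, with 1 point per library and a bar at the group mean. Red marks Q-GL-, blue the other 4 groups and grey NoTag, and every axis starts at 0. Lamb3 is high in Q-GL- and Pax7-465 libraries, whereas Lama4, Col22a1 and Col18a1 are highest in NoTag.

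Lama4 encodes the laminin alpha4 chain of vascular and nerve basement membranes. It was at 5.24 and 4.96 FPKM in Q-GL-, 4.67 and 4.36 FPKM in Pax3, 3.82 and 3.64 FPKM in Pax7-465, 2.98 and 3.31 FPKM in Q+GL+ and 3.05 and 2.73 FPKM in Q-GL+ libraries. Unlike Lamb3, it was thus second highest in Pax3 cells, and the Q+GL+ and Q-GL+ libraries overlapped. Q-GL- exceeded Q-GL+ cells by 0.65 ± 0.095 (adjusted p = 0.0022), a call kept under every alternative run. It exceeded Q+GL+ cells by 0.56 ± 0.095 (adjusted p = 0.0096), which did not pass in a fit of these groups alone, without either Q-GL- library and without Q+GL+ replicate 1, with log2 fold changes of 0.50 to 0.68 over all alternatives. Between Q-GL- and Pax3 cells the difference was 0.15 ± 0.095 (adjusted p = 0.46). Pax3 cells exceeded Q-GL+ cells in Lama4, at -0.50 for Q-GL+ minus Pax3 (SE 0.095, adjusted p = 0.033), where 0.708% of all genes passed (0.501% higher and 0.207% lower), which is 1 of the 3 comparisons that were not planned.

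Of the other tested laminin chains, Lamc1, Lama5 and Lamb2, none passed outside NoTag. Lamc1 stayed within 4.04 to 5.12 FPKM. Lama5, the alpha5 chain of mature basement membranes, was at 4.02 and 3.21 FPKM in Pax3 and 2.46 and 2.39 FPKM in Pax7-465 libraries, which bound its range of group means. Pax3 minus Q+GL+ cells gave 0.38 ± 0.11 (adjusted p = 0.26). The highest group mean of the 5 was that of Pax7-465 for Lamb3, Q-GL- for Lama4, Q+GL+ for Lamc1, Pax3 for Lama5 and Q-GL+ for Lamb2, and differences between chains were not tested.

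In the planned comparisons without NoTag, each collagen call was one of a higher level in Q-GL- cells. Col22a1 was at 24.3 and 28.3 FPKM in Q-GL-, 17.3 and 14.5 FPKM in Q-GL+, 18.9 and 18.0 FPKM in Q+GL+, 14.1 and 19.5 FPKM in Pax3 and 21.3 and 21.4 FPKM in Pax7-465 libraries. Both Q-GL- libraries were above all 8 others. The difference was 0.69 ± 0.13 (adjusted p = 0.015) from Q-GL+ and 0.63 ± 0.13 (adjusted p = 0.022) from Pax3 cells. It was 0.48 ± 0.13 (adjusted p = 0.10) from Q+GL+ cells, which did not pass. The call against Q-GL+ did not hold when replicate 2 of either group was left out, at 0.58 and 0.57, and that against Pax3 without Q-GL- replicate 2 and without Pax3 replicate 1, at 0.52 and 0.41.

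Col18a1 had another order, with Q-GL+ cells beside Q-GL- cells. It was at 10.1 and 10.4 FPKM in Q-GL-, 10.6 and 9.16 FPKM in Q-GL+, 8.98 and 9.80 FPKM in Pax7-465, 7.25 and 7.44 FPKM in Q+GL+ and 5.97 and 6.19 FPKM in Pax3 libraries. The first 3 groups lay above the Q+GL+ and Pax3 libraries without overlap. Q-GL- exceeded Pax3 cells by 0.67 ± 0.089 (adjusted p = 0.0011), a call kept under every alternative run. It exceeded Q+GL+ cells by 0.43 ± 0.089 (adjusted p = 0.028), which did not pass in a fit of these groups alone or whenever 1 of these 4 libraries was left out, at 0.41 to 0.45. Q-GL- minus Q-GL+ cells gave 0.05 ± 0.089 (adjusted p = 0.82). In the unplanned comparisons, Q-GL+ and Pax7-465 also exceeded Pax3 cells, by 0.62 (adjusted p = 0.011) and 0.55 (adjusted p = 0.0094), where 1.16% of all genes passed for the second pair (0.859% higher and 0.302% lower).

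Col17a1, a transmembrane collagen of hemidesmosomes, was lowest in Pax3 cells, at 0.578 and 0.825 FPKM. It was at 1.80 and 2.33 FPKM in Q-GL-, 2.22 and 1.75 FPKM in Q-GL+, 1.34 and 2.01 FPKM in Pax7-465 and 0.953 and 1.81 FPKM in Q+GL+ libraries. Both Pax3 libraries were below the 8 others, which overlapped. Q-GL- exceeded Pax3 cells by 0.85 ± 0.20 (adjusted p = 0.031), a call lost without either Q-GL- library, without Pax3 replicate 1 and with a filter of only values above 0. Col16a1, Col13a1, Col11a2 and Col8a1 did not pass outside NoTag with the values as deposited. The smallest adjusted p among them was that of Col16a1, a fibril-associated collagen, at 0.48 for Q-GL- minus Q-GL+ cells (SE 0.12, adjusted p = 0.052). In that comparison Col16a1 passed after median centring, at 0.46 (adjusted p = 0.046), and Col8a1 after quantile normalization, at -0.42 (adjusted p = 0.046).

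Itga6 was lowest in Q-GL- cells. It was at 26.5 and 26.1 FPKM in Q-GL-, 28.6 and 30.8 FPKM in Pax3, 30.1 and 31.0 FPKM in Q+GL+, 34.7 and 31.7 FPKM in Q-GL+ and 34.7 and 35.9 FPKM in Pax7-465 libraries. Both Q-GL- libraries were below the 8 others, and the Pax7-465 libraries had the highest mean. Q-GL- minus Q-GL+ cells gave -0.32 ± 0.075 (adjusted p = 0.033) and Pax7-465 minus Q-GL- cells 0.41 ± 0.075 (adjusted p = 0.036). The first call was lost without trend and whenever 1 of the 4 libraries was left out, at -0.39 to -0.26. The second was lost in 8 of 14 alternatives, among them each left-out library and the fit without the NoTag libraries, at 0.39 to 0.45 over all 14. Differences of Q-GL- from Q+GL+ and Pax3 cells were -0.21 (adjusted p = 0.21) and -0.17 (adjusted p = 0.26). Both passed after quantile normalization, at -0.25 (adjusted p = 0.019) and -0.23 (adjusted p = 0.018).

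The remaining integrins did not pass outside NoTag with the values as deposited. The mean of Itgb1 was 145 ± 0.459 FPKM (SD, n = 2) for Q-GL- and 129 ± 5.19 FPKM for Q-GL+ libraries, which is a difference of 0.17 with a 95% interval of -0.01 to 0.35. Q-GL- minus Pax3 cells passed for Itgb1 after quantile normalization, at 0.13 (adjusted p = 0.037). Itgb5 was at 9.50 and 9.32 FPKM in Q+GL+ and 7.06 and 5.97 FPKM in Q-GL+ libraries, a difference of 0.47 ± 0.11 (adjusted p = 0.074), one of those that passed after median centring. Itga3 was at 8.61 and 8.93 FPKM in Pax3 cells, below each of the 8 others. Q-GL- minus Pax3 cells gave 0.34 for it (SE 0.094, adjusted p = 0.064).

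Among the proteases, 0 of 5 metalloproteinases and 0 of 4 ADAMTS proteases passed outside NoTag. From 0.262% to 4.33% of all genes passed in the planned comparisons without NoTag, so no call among so few genes does not set the proteases apart. Mmp24 was at 12.6 and 12.7 FPKM in Q-GL- and 11.5 and 11.1 FPKM in Q-GL+ libraries, a difference of 0.15 with a 95% interval of -0.07 to 0.37. Mmp28 was at 4.67 and 4.30 FPKM in Q-GL- libraries and at 3.45 to 3.92 FPKM in the 8 others, and did not pass. Adamts4 was at 3.11 and 3.36 FPKM in Q+GL+ and 2.21 and 2.34 FPKM in Q-GL+ libraries, a difference of 0.37 ± 0.12 (adjusted p = 0.21). For Mmp28 and Adamts4, 1 group thus lay above the 8 other libraries without overlap, Q-GL- in the first and Q+GL+ in the second, without passing the test. The share of all genes with such a gap was not computed.

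Compared with all genes, the members varied more between the 5 groups other than NoTag. The range of the 5 group means on the log2(FPKM + 1) scale had a median of 0.43 over the 28 tested members and of 0.23 over all genes tested. It reached 0.5 in 8 members (28.6%), compared with 9.75% of all genes. Q-GL- was the highest of the 5 groups in 14 of 28 members, a share of 50.0%, compared with 32.9% of all genes. Q-GL+ was the lowest in 9 members and Pax3 in 8, compared with 23.1% and 23.9% of all genes. Members lie lower than most genes, and the part of the level in this wider range was not tested.

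Other matrix and adhesion genes were listed as partners, among them inhibitors of the proteases, collagen-modifying enzymes and proteins that link integrins to the cytoskeleton. Of 50 listed, 35 were among the genes analysed here and 24 were tested. The integrin alpha subunits Itgal and Itgav, whose symbols fall outside the member rule, were at 6.04 to 8.13 and 1.57 to 3.13 FPKM outside NoTag. Itgae was not tested. Timp2, which inhibits matrix metalloproteinases, and Bsg, a membrane glycoprotein known to induce them, were the 2 that passed as higher in Q-GL- cells, against each of Q-GL+, Q+GL+ and Pax3 cells, with 0 lower in each comparison. That is 2 of 24 partners in each, where 4.17%, 2.15% and 4.33% of all genes passed. Bsg falls outside the rule for named genes and is named after its values were seen. No partner passed between Q+GL+ and Q-GL+, between Pax3 and Q+GL+ or between Pax7-465 and Q-GL- cells, and Timp2 alone was higher in Pax7-465 than in Q+GL+ cells. In that order, 0.962%, 0.262%, 0.445% and 1.33% of all genes passed. At such shares, no call among 24 partners does not set them apart.

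Timp2 was at 65.8 and 63.1 FPKM in Q-GL- and 58.8 and 63.8 FPKM in Pax7-465 libraries. It was at 34.2 and 33.7 FPKM in Q-GL+, 29.2 and 30.3 FPKM in Q+GL+ and 25.9 and 27.3 FPKM in Pax3 libraries. As with Lamb3, the Q-GL- and Pax7-465 libraries were all above the 6 others. Pax7-465 exceeded Q+GL+ cells by 1.02 ± 0.072 (adjusted p = 3.2e-05) in Timp2, and Pax7-465 minus Q-GL- cells gave -0.07 ± 0.072 (adjusted p = 0.79). Bsg was at 1288 and 1331 FPKM in Q-GL-, 986 and 1029 FPKM in Pax7-465 and 668 to 1010 FPKM in the 6 other libraries outside NoTag, so that Pax7-465 overlapped the rest in this gene. Ilk, Parva and Tln1, which link integrins to actin, stayed within 35.1 to 42.8, 12.2 to 16.0 and 22.3 to 25.1 FPKM outside NoTag.

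The NoTag libraries are described on their own because most genes lay higher in them, and the median log2 fold change over all genes was 0.18 against Q+GL+ and 0.19 against Pax7-465 cells. Against Q+GL+ cells, 13 of 28 members passed, 11 higher and 2 lower in NoTag, a share of 46.4% that is near the 46% of all genes (36.9% higher and 9.02% lower). After median centring, 8 were higher and 6 lower (50.0%), compared with 42.8% of all genes (21.6% higher and 21.2% lower). Against Pax7-465 cells, 10 were higher and 3 lower in NoTag (46.4%, near the 45.8% of all genes, 37.9% higher and 7.94% lower), and 10 higher and 6 lower after median centring (57.1%), compared with 40.5% of all genes (21.1% higher and 19.4% lower). Without Adamts9, which was tested only through its level in NoTag, 12 of 27 members passed in each comparison (44.4%). Both comparisons share the NoTag libraries, and what sets these libraries apart cannot be told apart from the construct.

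Among the higher members, Lama4 was at 11.95 and 11.3 FPKM in NoTag, above the 2.73 to 5.24 FPKM of the 10 others. NoTag minus Q+GL+ cells gave 1.61 ± 0.095 (adjusted p = 1.1e-07), and 1.42 after median centring. Adamts9, a protease of versican and aggrecan, was at 2.36 and 2.09 FPKM in NoTag and 0.345 to 0.606 FPKM elsewhere, a direction set by the limit for testing. Adamts10, a protease that binds fibrillin, was at 4.63 and 4.01 FPKM in NoTag and 0.694 to 1.98 FPKM elsewhere, a difference from Q+GL+ cells of 1.12 ± 0.17 (adjusted p = 2.1e-04). For Lama4 and Adamts10 both NoTag libraries lay above all others. The same held for Col22a1, at 38.9 and 44.0 FPKM, for Col18a1, at 14.4 and 15.4 FPKM, for Itgb5, at 17.4 and 17.6 FPKM, and for Mmp23, at 5.34 and 6.19 FPKM. These 4 were higher against both groups, with differences from Q+GL+ cells of 1.12, 0.93, 0.83 and 0.61, and were also higher after median centring. Both NoTag libraries lay above all others for Itga3, Lamc1 and Col16a1 too. The share of all genes with such a gap was not computed, and 36.9% of all genes were higher in NoTag than in Q+GL+ cells.

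Lama5 was lower in NoTag against both groups, at 1.57 and 1.32 FPKM against 2.39 to 4.02 FPKM elsewhere. NoTag minus Q+GL+ cells gave -0.53 ± 0.11 (adjusted p = 0.0026), and minus Pax7-465 cells -0.49 ± 0.11 (adjusted p = 0.0045). Lamb3 was higher than in Q+GL+ cells, by 1.02 ± 0.15 (adjusted p = 1.7e-04), and lower than in Pax7-465 cells, at -0.91 ± 0.15 (adjusted p = 3.9e-04). The calls of Col16a1, Itga3 and Lamc1 as higher than in Q+GL+ cells, at 0.46, 0.40 and 0.26, were lost after median centring. Col8a1 was lower against Q+GL+ cells, at -0.38 (adjusted p = 0.023), and Itga6 lower against Pax7-465 cells, at -0.20 (adjusted p = 0.042). The former did not pass without either Q+GL+ library or without NoTag replicate 1, and the latter did not when any of the 4 libraries was left out. Itgb1, at 147 and 142 FPKM in NoTag, overlapped the other libraries.

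**Figure D4:**
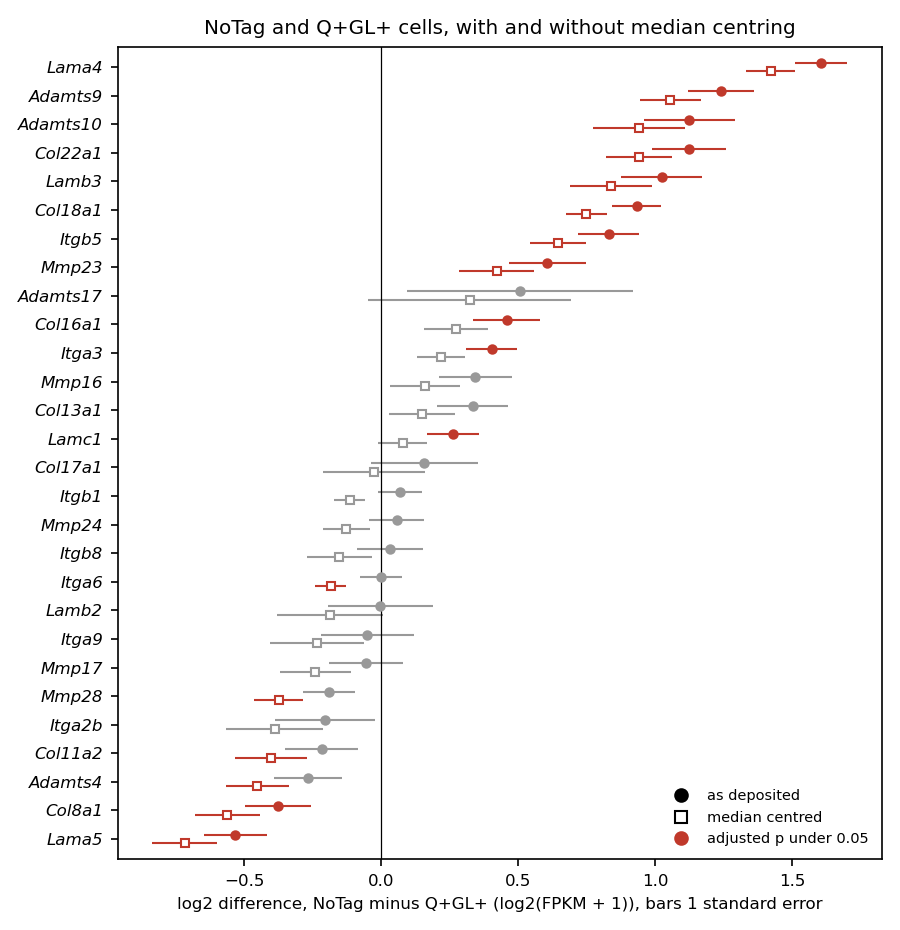
NoTag minus Q+GL+ cells in log2(FPKM + 1) for the 28 tested members, with bars of 1 standard error from limma. Circles are the values as deposited, open squares those after median centring, and red marks an adjusted p under 0.05. Centring shifts every member downwards and turns the split from 11 higher and 2 lower to 8 higher and 6 lower.

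Of the 24 partners tested, 11 were higher and 3 lower in NoTag than in Q+GL+ cells (58.3%, compared with 46% of all genes). Against Pax7-465 cells 11 were higher and 2 lower (54.2%, compared with 45.8% of all genes). Timp2 was at 100.4 and 107 FPKM in NoTag, above all other libraries, and exceeded Q+GL+ cells by 1.76 ± 0.072 (adjusted p = 3.7e-09). Ilk, at 52.9 and 53.7 FPKM, Parva, at 21.1 and 21.4 FPKM, and Tln1, at 30.3 and 33.8 FPKM, were above all other libraries too. P4ha1, a subunit of the prolyl hydroxylase that modifies collagen, was at 125 and 128 FPKM in NoTag and 165 to 232 FPKM elsewhere. Agrn, which encodes the basement membrane proteoglycan agrin, was at 1.79 and 1.81 FPKM in NoTag and 2.33 to 3.57 FPKM elsewhere. These partner values were not recomputed after median centring.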

How the data were processed

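RNA-Seq of 12 libraries in 6 groups was used. Paired-end reads from ribosome-depleted, strand-specific libraries went through Trimmomatic and TopHat2 (Ensembl GRCm38, known junctions) and were summed over genes by HOMER. The deposited values were taken as FPKM, since the header names no unit and the authors used HOMER. For the RNA-Seq steps, the tool versions and how genes were chosen for the table are not given in the sources used here. The authors named edgeR for their own comparisons. The table holds no counts, so no count model was run and no detection floor is given. Another 4 per-sample columns, which match no sample label, were left out. Groups were taken from the labels.

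Values were taken as log2(FPKM + 1), with a pseudocount of 1. A gene was tested if 2 or more libraries had 1 FPKM or more (12578 of 16385 genes). All 12 libraries went into a single limma-trend fit (robust), with a term for each group and a shared estimate of the spread. Adjusted p-values (Benjamini-Hochberg, threshold 0.05, two-sided) are over all genes tested within a comparison. There were 9 planned comparisons, and 3 were added after the data were seen. Intervals are at 95%, from the same fit. Software was limma 3.58.1 and statmod 1.5.0 under R 4.3.3, and numpy 2.4.6, pandas 2.3.3 and matplotlib 3.10.9 under Python 3.11.15. The fit was tested on simulated data.

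The members, the partner list and the marker lists were chosen with earlier results of these data known. Named were members past the test in a planned comparison, the 2 of each kind with the highest mean outside NoTag, Lamb3, the 6 partners with the smallest adjusted p in a planned comparison, and Pax7 and Tbx19. Coordinates are those of the table with starts counted from 1. Of 59 members, all were found by identifier in GENCODE M21 and 54 had the same coordinates. On the same strand, exons of another gene overlap those of 3 members, Col20a1, Col7a1 and Itga10, none of them tested, and whether HOMER counted by strand is not given. Promoter windows are from RefSeq on GRCm38.p6.

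Alternatives were quantile normalization, median centring, a pseudocount of 0.1, a filter of values above 0 and one of 5 FPKM, limma without trend and without the robust option, only the groups compared, no NoTag libraries, a replicate block and each library left out in turn. Same-numbered replicates deviated together at a correlation above 0.1 in 2 of 15 pairs of groups (-0.158 to 0.173), so the numbers were not taken to pair the samples.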

Additional observations from a re-analysis of the deposited data

How the results depend on the processing

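Over the 9 planned comparisons, 39 calls of a member were made, of which 26 were kept in every alternative run, 13 were lost in at least 1 and 0 changed direction. The 3 unplanned comparisons were not run under alternatives. With every library of the groups compared kept, numbers of members past the test moved by more than 1.5 times in these cases. With a filter of only values above 0, 7 members passed between Q-GL- and Q-GL+ cells in place of 4, 1 between Q+GL+ and Q-GL+ in place of 0, and 21 in each NoTag comparison in place of 13. This filter tested 57 members among 15843 genes in place of 28 among 12578. The first and the NoTag counts are thus smaller shares of the members tested. Of all genes, 5244 were then higher and 1350 lower in NoTag than in Q+GL+ cells, in place of 4646 and 1135. Against Pax7-465 cells they were 5365 and 1170 in place of 4766 and 999. Between Q-GL- and Q-GL+ cells, 351 genes were higher and 126 lower in the former, in place of 385 and 139. Between Q+GL+ and Q-GL+ cells, 46 were higher and 64 lower in the former, in place of 57 and 64. With a filter of 5 FPKM, 8 of 11 members passed between NoTag and Q+GL+ cells, a larger share than 13 of 28. Of the 9644 genes then tested, 4047 were higher and 872 lower in NoTag. Between Q+GL+ and Q-GL+ cells, 2 passed after quantile normalization and 2 after median centring, and between Pax7-465 and Q+GL+ cells 3 passed after quantile normalization in place of 1. Calls over all genes rose as well. In the first pair they went from 57 higher and 64 lower to 205 and 214 after quantile normalization and 104 and 113 after centring. In the second pair they went from 109 and 58 to 225 and 184. With only the groups compared, 1 passed between Q-GL- and Q+GL+ cells in place of 3. All genes then gave 160 higher and 29 lower in place of 226 and 45. The call between Pax7-465 and Q-GL- cells fell to 0 without trend, with only the groups compared, without the NoTag libraries and with the replicate block, and this block changed no other call count by more than 1.5 times. Over all genes, 12 higher and 44 lower in Pax7-465 cells became 10 and 43, 2 and 16, 3 and 29, and 9 and 45, in that order. The cause of these changes was not tested, except that the filters change which genes enter.

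When 1 library was left out, its group kept 1 library, so only median differences are given here. For Q-GL- minus Q-GL+ cells the median log2 fold change was 0.099 to 0.192 over the members and 0.007 to 0.075 over all genes. For Q-GL- minus Q+GL+ cells it was 0.051 to 0.140 over the members and 0.005 to 0.042 over all genes. For Q-GL- minus Pax3 cells it was 0.088 to 0.239 over the members and -0.004 to 0.096 over all genes. The lone library of a group is then assumed to vary like the other groups. With 2 libraries per group and unknown depth, members near 1 FPKM give no firm differences.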

Other observations

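Some members under the limit for testing passed when every gene above 0 in at least 2 libraries entered the fit, and they are named here after their values were seen. Lamb1, the laminin beta1 chain, was at 1.17 and 0.768 FPKM in Q-GL-, 0.609 and 0.575 FPKM in Pax7-465 and 0.211 to 0.481 FPKM in the 6 Q-GL+, Q+GL+ and Pax3 libraries. Its highest values were thus in the same groups as those of Lamb3, in the other order. Under this filter Q-GL- exceeded Q+GL+ cells by 0.69 ± 0.12 (log2 difference from limma ± standard error, adjusted p = 0.025) and Pax3 cells by 0.65 ± 0.12 (adjusted p = 0.02). Itgb2l, an integrin beta2-like subunit, was at 0.496 and 0.483 FPKM in Q-GL+ libraries and at 0.0589 to 0.228 FPKM in the 8 others outside NoTag. Q-GL- minus Q-GL+ cells gave -0.37 (adjusted p = 0.029) and Q+GL+ minus Q-GL+ cells -0.41 (adjusted p = 0.048). These levels are under 1 FPKM except for 1 library of Lamb1.

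Members listed at 0 in the 10 libraries other than NoTag had low values in NoTag. Mmp11 was at 0.0875 and 0.36 FPKM, Adamts3 at 0.0924 and 0.113 FPKM, Col4a3 at 0.0214 and 0.0111 FPKM and Adamts14 at 0.00892 and 0.0133 FPKM in the NoTag libraries. Itga4 and Mmp19 were listed at 0 in 1 NoTag library and at 0.00483 and 0.0223 FPKM in the other.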
